A study of Mus musculus with 24 samples.

Results

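The 7 genes Gcsam, Dkk3, Hepacam2, Actn1, Ltbp2, Dnajc22 and Rtn4rl1 were followed through conventional dendritic cells (cDCs) of the mouse spleen in which the transcription factor Zeb2 had been deleted or overexpressed. They were picked from these counts because their RNA fell in cDC1 that carried a Zeb2 transgene, some being restricted to cDC1 (Dkk3, Gcsam) and some being higher in cDC2 (Dnajc22, Rtn4rl1). All 7 were found among the 24421 gene symbols, and all 7 were among the 13166 genes that passed the filter on low counts. Since they chose the genes, that fall and the subset difference of the controls are given as a description, without a test. The tests concern the same genes under the deletion, under the transgene in cDC2, and between subsets in libraries that the choice did not use.

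Conventional DCs of the spleen fall into cDC1, which cross-present material of dead cells and so prime CD8 T cells, and cDC2, which are better known as primers of CD4 T cells. The cDC1 programme depends on Irf8, Batf3 and Id2. Zeb2 is a zinc-finger protein that binds E-box sequences and acts mostly as a repressor, and it is abundant in cDC2 and scarce in cDC1.

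RNA sequencing covered 24 libraries of sorted cDC1 and cDC2 from untreated C57Bl/6 mice aged 6 to 12 weeks. In the deletion line, the controls were Zeb2fl/fl and the Cre-positive mice CD11cCRExZeb2fl/fl, so that all carried floxed Zeb2. In the transgene line, the controls were R26-Zeb2Tg/Tg and the Cre-positive mice CD11cCRExR26-Zeb2Tg/Tg, so that all carried the Zeb2 transgene in the Rosa26 locus. Each subset of each line had 2 control and 4 Cre-positive libraries. The Cre is driven by CD11c, which is expressed by cDCs and also by other myeloid cells, and whether RNA of several mice was pooled is not stated in the sources used here. Nothing in the labels says that the numbered libraries of a group came from separate mice, so the p-values reflect how much the libraries vary, which may be technical.

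Library totals ranged from 21972763 to 36094786 counts in genes. A count of 3, taken as the floor, was worth 0.0831 to 0.137 CPM (counts scaled to library size) by these plain totals. The CPM of genes and markers given below were further scaled by the trimmed mean of M-values (TMM). Zeb2 stood at 41.4 to 46.3 CPM in transgene cDC1 against 2.36 and 3.26 CPM in their controls, a log2 difference of 3.96 (SE 0.39, adjusted p = 3.88e-07 by edgeR). In cDC2 Zeb2 was 30.7 to 41.4 CPM with the deletion against 132 and 176 CPM, a log2 difference of -2.11 (SE 0.27, adjusted p = 5.13e-05). In transgene cDC2 Zeb2 was 148 to 159 CPM against 103.5 and 104.0 CPM (log2 0.56, SE 0.29, adjusted p = 0.618). In a fit of the compared groups alone the log2 difference was 0.55 and the adjusted p 0.0255. In cDC1 of the deletion line Zeb2 was 0.457 to 2.67 CPM with or without Cre, so that the counts do not check the deletion there. Which exons are deleted is not given in the sources used here, and the Zeb2 count covers the whole gene. Xcr1, the chemokine receptor that defines cDC1, was 778 to 1259 CPM in all cDC1 libraries and at most 7.74 CPM in cDC2. The summed level of 8 cDC1 markers was 7148 to 9747 CPM in transgene cDC1 and 11030 to 13630 CPM in their controls. That of 8 cDC2 markers was 273 to 468 against 211 to 217 CPM, Sirpa standing at 36.2 to 117 CPM in transgene cDC1 and at 6.99 and 7.78 CPM in the controls. In the same comparison red pulp macrophage markers (7 genes) summed to 203 to 376 against 138 to 172 CPM, B cell markers (8 genes) to 26.6 to 46.9 against 79.2 to 103 CPM, and plasmacytoid DC markers (8 genes) to 68.5 to 84.4 against 107 to 110 CPM. Monocyte markers (6 genes) summed to 474.2 to 547.5 CPM against 255.1 and 468.5 CPM. Markers of T cells, NK cells, neutrophils and erythroid cells summed to at most 11.4 CPM in any library. The part that these shifts play in the results on the 7 genes was not tested, and in such bulk samples fewer cells of a type and less RNA per cell cannot be told apart.

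The promoters of these genes are of interest because ZEB proteins are known to bind the letters CACCT, often as the E-box CACCTG. RefSeq promoter windows of build GRCm38.p6, each spanning 250 bases before and 50 bases after an annotated start, were matched for 4 of the 7 genes: Gcsam (chr16:45610190-45610489, plus strand), Hepacam2 (chr6:3494449-3494748, minus strand), Actn1 (chr12:80260314-80260613, minus strand) and Ltbp2 (chr12:84876442-84876741, minus strand). They are shown 5′ to 3′ on the gene's strand, with CACCT or its reverse complement AGGTG in capitals, since each of the 4 windows holds it.
Gcsam: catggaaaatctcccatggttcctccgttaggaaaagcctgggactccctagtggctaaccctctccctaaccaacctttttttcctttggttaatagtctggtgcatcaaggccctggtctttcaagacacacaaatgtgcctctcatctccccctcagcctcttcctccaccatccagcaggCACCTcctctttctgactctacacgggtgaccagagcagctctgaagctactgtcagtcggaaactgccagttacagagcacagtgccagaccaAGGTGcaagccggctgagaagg
Hepacam2: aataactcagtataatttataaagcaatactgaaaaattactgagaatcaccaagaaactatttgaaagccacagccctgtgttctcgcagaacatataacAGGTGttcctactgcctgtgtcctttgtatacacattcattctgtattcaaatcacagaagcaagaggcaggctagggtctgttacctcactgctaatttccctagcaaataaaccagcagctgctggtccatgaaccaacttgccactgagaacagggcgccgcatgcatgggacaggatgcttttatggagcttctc
Actn1: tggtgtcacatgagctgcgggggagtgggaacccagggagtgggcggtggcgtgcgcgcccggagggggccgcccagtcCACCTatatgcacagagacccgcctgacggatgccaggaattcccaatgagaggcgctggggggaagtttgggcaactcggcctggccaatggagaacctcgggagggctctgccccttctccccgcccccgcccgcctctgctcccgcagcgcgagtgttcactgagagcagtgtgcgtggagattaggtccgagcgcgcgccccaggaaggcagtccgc
Ltbp2: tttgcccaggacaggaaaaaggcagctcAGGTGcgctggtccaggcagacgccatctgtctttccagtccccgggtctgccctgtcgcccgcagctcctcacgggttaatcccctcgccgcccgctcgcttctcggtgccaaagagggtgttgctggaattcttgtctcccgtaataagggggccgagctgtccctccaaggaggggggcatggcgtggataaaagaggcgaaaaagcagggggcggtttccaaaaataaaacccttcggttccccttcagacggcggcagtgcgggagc

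CACCT on either strand was present in 4 of 4 windows and in 51.9% of the 32851 windows of that length in the whole table, so its presence is common. Gcsam held it at -66 on the gene's strand and at +28 on the opposite strand, counting the first transcribed base as 0 and giving the first position of each match along the window. Hepacam2 held it at -149 and Ltbp2 at -222, both on the opposite strand, and Actn1 at -171 on its own strand. The longer E-box CACCTG, which overlaps CACCT, was found in 2 of 4 windows (Hepacam2 at -150 and Ltbp2 at -223) and in 20.2% of all windows. The ETS-IRF composite GGAANNGAA, a sequence bound by Irf8 together with ETS factors, occurred in Ltbp2 at +15 on the opposite strand and in 8.24% of all windows. Neither the interferon response letters GAAANNGAA (8.56% of all windows) nor the AP-1 letters TGANTCA (7.81%) occurred in the 4 windows. The map of motif matches shows these positions. A match is a description of the letters and not a bound site.

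**Figure D1:**
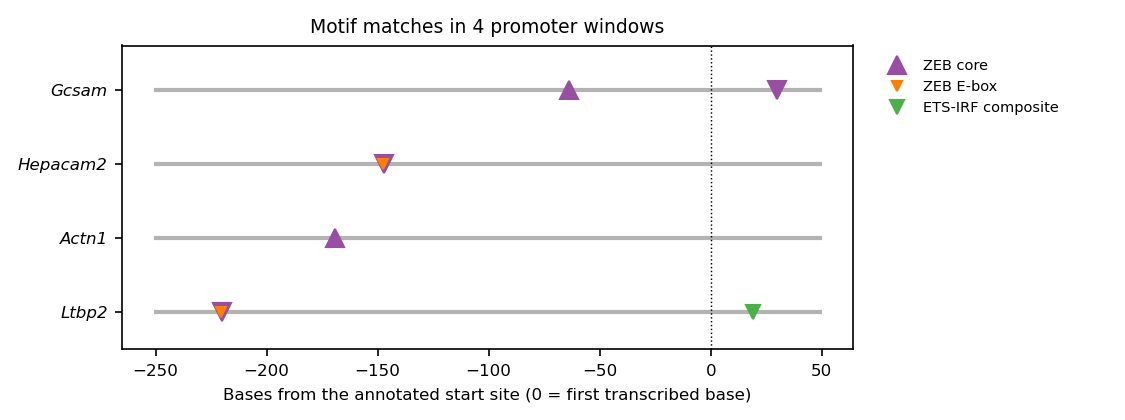
Positions of motif matches in the promoter windows of Gcsam, Hepacam2, Actn1 and Ltbp2, with the distance in bases from the annotated start on the x axis and 1 line per gene. Upward triangles are matches on the gene's strand and downward triangles matches on the opposite strand: the ZEB core lies in all 4 windows, the ZEB E-box in 2 and the ETS-IRF composite in Ltbp2 only.

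The genes lie on different chromosomes except for Actn1 and Ltbp2, which share chromosome 12 (GENCODE M21 annotation of GRCm38). Gcsam spans chr16:45610380-45622867 (plus), Dkk3 chr7:112116017-112159057 (minus), Hepacam2 chr6:3457096-3498298 (minus), Actn1 chr12:80167547-80260371 (minus), Ltbp2 chr12:84783212-84876532 (minus), Dnajc22 chr15:99093170-99104737 (plus) and Rtn4rl1 chr11:75193783-75267769 (plus). The Hepacam2 window above lies inside the GENCODE span of the gene, whose annotated 5′ end is further upstream. Actn1 overlaps the antisense genes Gm47766 and Gm47767, and Ltbp2 overlaps the antisense gene D030025P21Rik. The strand setting of the counting is not given in the sources used here, so reads of these pairs cannot be told apart. Counted per kilobase of exon, the mean levels in control cDC1 of the transgene line ran from 124 CPM per kb for Gcsam through 23.3 for Dkk3, 19.5 for Hepacam2, 12.7 for Actn1, 4.29 for Ltbp2 and 1.92 for Rtn4rl1 to 0.688 for Dnajc22.

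By their level in the control subsets the 7 genes formed 2 kinds. Gcsam, Dkk3, Hepacam2, Ltbp2 and Actn1 were higher in control cDC1, whereas control cDC2 had more of Dnajc22 and Rtn4rl1, as the choice of genes had it. Fitted over both lines, the log2 difference of control cDC2 minus control cDC1 was -6.22 (SE 0.25) for Hepacam2, -3.14 (SE 0.22) for Ltbp2, -0.79 (SE 0.15) for Actn1, 1.76 (SE 0.22) for Rtn4rl1 and 3.08 (SE 0.37) for Dnajc22. Gcsam and Dkk3 were near the counting floor in control cDC2, with 2 Gcsam counts and 0 Dkk3 counts over both deletion-line libraries. Of all genes tested, 27.6% were higher and 25.8% lower in control cDC2, and nothing is read from the 7 genes here because this contrast helped to choose them. In transgene cDC1, where they were chosen to fall, each of the 7 lay wholly below its 2 controls, a separation not counted over all genes. All but Dnajc22 were still above the counting floor in every library there, Rtn4rl1 having the fewest counts of these (11 to 31). Their RNA was thus lowered and not absent from these bulk samples, which do not give the level per cell. Over all genes tested, 3.58% were higher and 3.42% lower in that contrast, which chose the genes and so is not tested for them.

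Gcsam encodes an adaptor protein known from germinal-centre B cells, where it limits cell motility and binds the kinase Syk. It was the most abundant of the 7 in cDC1, at 406 and 445 CPM in the controls of the transgene line, 382 and 432 CPM in those of the deletion line, and 366, 397, 402 and 420 CPM with the deletion. With the transgene it was 63.9, 70.6, 79.3 and 85.3 CPM, which is 5.68-fold lower than the controls of that line (log2 -2.51, SE 0.20). The 3 other cDC1 groups overlapped one another, and the transgene group lay below all of them. It still exceeded the control cDC2 of its line 76.2-fold. In cDC2 its counts were higher in the transgene line. The deletion line had 0 and 2 counts in the controls and 2, 2, 2 and 4 with Cre, while the transgene line had 12 and 43 counts in the controls and 17, 22, 23 and 56 with Cre. The ratio of the control counts of the transgene line to those of the deletion line was 26.3 (95% interval 6.95 to 223, counting error only). The summed cDC1 markers of those cDC2 libraries did not follow, at 764 to 1036 CPM in the transgene line and 968 to 1291 CPM in the deletion line.

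Dkk3 encodes a secreted glycoprotein of the Dickkopf family, whose other members block Wnt signalling through Lrp5 and Lrp6. Its RNA was restricted to cDC1, with a total of 4 counts over all 12 cDC2 libraries. In cDC1 it was 77.3 and 79.3 CPM in controls of the transgene line, 83.8 and 108 CPM in those of the deletion line, and 61.5, 67.7, 77.7 and 126 CPM with the deletion. In the transgene libraries it was 4.46, 4.53, 6.90 and 11.3 CPM, 11.5-fold below the controls (log2 -3.51, SE 0.30). The 4 transgene values themselves spanned from 107 to 389 counts, and the highest of them stayed well under every other cDC1 library. Against 2 counts in control cDC2 of the line, the 798 counts of transgene cDC1 gave a ratio of 197 (95% interval 54.4 to 1629, counting error only). Dkk3 was thus lowered but still detected in every transgene cDC1 library.

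Hepacam2 encodes an adhesion-type membrane protein of the immunoglobulin superfamily. It showed the smallest of the 7 falls: 33.2, 37.2, 42.6 and 55.5 CPM in transgene cDC1 against 89.6 and 140 CPM in the controls, which is 2.72-fold (log2 -1.45, SE 0.22). The other cDC1 libraries ranged from 105 to 177 CPM. In cDC2 it was scarce, at 1.46 to 2.31 CPM in the controls of both lines and 1.28 to 2.49 CPM with the transgene. With the deletion it rose to 4.85, 5.15, 6.04 and 6.61 CPM, above every other cDC2 library. Transgene cDC1 remained 24.9-fold above the control cDC2 of the line.

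Actn1 encodes alpha-actinin 1, which crosslinks actin filaments and anchors them at adhesion sites. It was expressed in both subsets. In cDC1 it was 59.1 and 81.6 CPM in controls of the transgene line, 52.4 and 77.2 CPM in those of the deletion line, and 56.1, 57.3, 72.0 and 72.6 CPM with the deletion. Transgene cDC1 had 9.65, 11.3, 11.4 and 14.0 CPM, a 6.07-fold lower level (log2 -2.60, SE 0.18). That is the lowest of the 8 groups, 3.54-fold under the control cDC2 of the same line (37.7 and 44.4 CPM). This is a description, since the gene was chosen for its fall in these libraries. The cDC2 libraries had 32.6 and 41.2 CPM in deletion-line controls, 55.1, 62.7, 65.3 and 80.3 CPM with the deletion, and 27.1, 35.4, 35.7 and 37.1 CPM with the transgene.

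Ltbp2 encodes a latent TGF-beta binding protein, an extracellular protein of microfibrils that, unlike its relatives, is not known to bind latent TGF-beta. In cDC1 it was 31.9 and 38.3 CPM in controls of the transgene line, 28.2 and 28.6 CPM in those of the deletion line, and 17.7, 18.7, 19.8 and 30.1 CPM with the deletion. In transgene cDC1 it was 2.16, 2.48, 2.87 and 3.19 CPM, 13.1-fold lower (log2 -3.70, SE 0.24). These values overlapped those of cDC2 in the same line, 2.99 and 3.10 CPM in controls and 2.60 to 4.38 CPM with the transgene. The lowest 2 transgene cDC1 libraries lay below every cDC2 library, and the other 2 lay among them.

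Dnajc22 encodes a membrane protein with a J domain, the domain by which co-chaperones engage Hsp70. It was scarce in cDC1, at 1.17 and 1.38 CPM in controls of the transgene line, 0.451 and 1.55 CPM in those of the deletion line, and 0.457, 1.04, 1.37 and 2.41 CPM with the deletion. The 4 transgene cDC1 libraries held 0, 2, 3 and 3 counts, at or under the floor of 3 counts, against 28 and 29 counts in the controls. The means differed 16.9-fold (fitted log2 -4.05, SE 0.67), a size that rests on 8 counts. In cDC2 it was 5.89 to 15.7 CPM in all 12 libraries, and transgene cDC1 lay 123-fold below the control cDC2 of the line.

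Rtn4rl1 encodes a Nogo receptor family protein, a membrane-anchored protein with leucine-rich repeats known from neurons. In cDC1 it was 5.55 and 8.02 CPM in controls of the transgene line, 3.91 and 7.39 CPM in those of the deletion line, and 7.48, 7.54, 8.15 and 10.7 CPM with the deletion. Transgene cDC1 had 0.395, 0.659, 0.720 and 0.898 CPM (11 to 31 counts), 10.2-fold lower (log2 -3.31, SE 0.32). This was 32.6-fold below the control cDC2 of the line. In cDC2 it was 18.6 to 24.9 CPM in the controls of both lines, 71.3, 72.2, 72.4 and 75.0 CPM with the deletion, and 5.81, 12.3, 12.4 and 13.5 CPM with the transgene. Rtn4rl1 was thus low in the transgene libraries of both subsets and highest in deletion cDC2, which formed a narrow group above all other libraries.

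**Figure D2:**
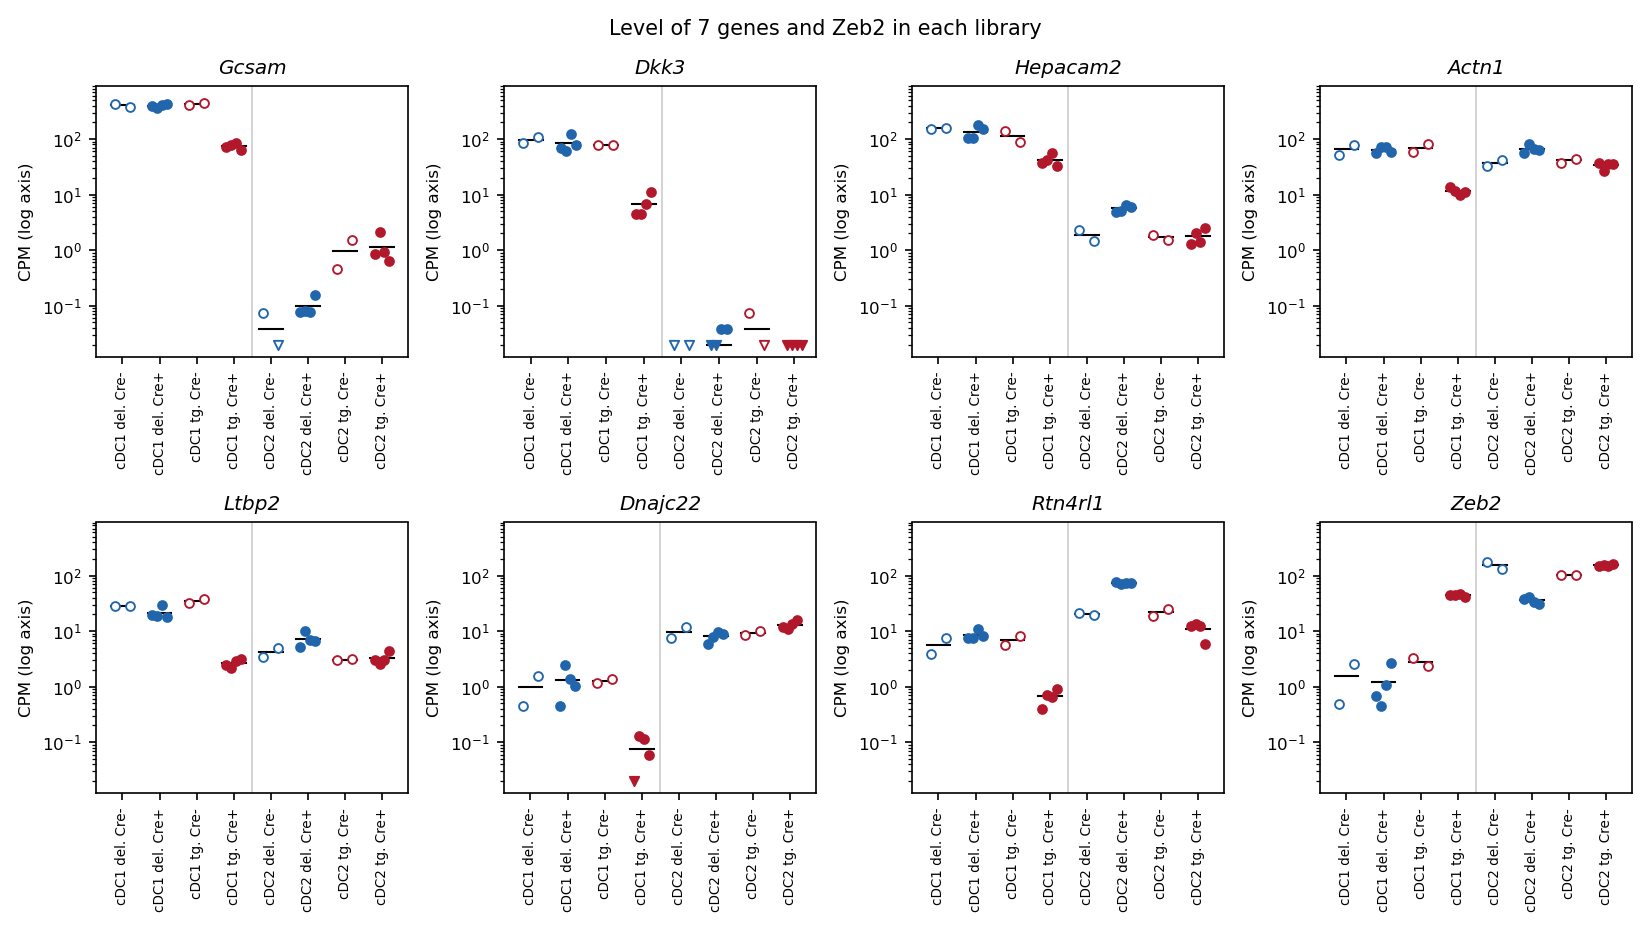
Level of the 7 genes and Zeb2 in each of the 24 libraries, as TMM-scaled CPM on a log axis, with the 8 groups of subset, line (del., deletion; tg., transgene) and Cre on the x axis. Each point is a library, open for Cre-negative and filled for Cre-positive, bars are group means, and triangles at the bottom are libraries with 0 counts. The filled red points of transgene cDC1 lie below all other cDC1 points in each of the 7 panels.

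The deletion was then examined in cDC2. The Cre-positive libraries of this comparison had no part in the choice of the genes, while its controls had entered it through the subset difference, as had the controls of the other Cre comparisons below. Rtn4rl1, Hepacam2 and Actn1 rose, and none of the 7 fell. By the edgeR quasi-likelihood test, 3 of the 7 genes were higher at an adjusted p under 0.05, against 2.33% of all genes tested, and 0 were lower, against 2.88%. Gcsam and Dkk3 were at or near the counting floor in these libraries and had too few counts to pass. The median log2 difference of the other 5 was 0.834, against 0.0084 for all genes tested. At an unadjusted p under 0.05 the count was 4 of 7, against 17.8% of all genes tested.

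Rtn4rl1 had the largest change, 3.64-fold higher with the deletion (log2 1.86, SE 0.28, adjusted p = 0.000189), with 72.7 CPM ± 1.60 (SD, n = 4) in the deletion libraries and 20.0 CPM ± 1.11 (SD, n = 2) in the controls. Its adjusted p stayed at or under 0.0126 when any library was left out. Hepacam2 was 3.00-fold higher (log2 1.58, SE 0.32, adjusted p = 0.00408). Without the second control library the adjusted p was 0.0927. Actn1 was 1.78-fold higher (log2 0.83, SE 0.19, adjusted p = 0.0114), a call that was lost without the first control library (adjusted p = 0.253). All 4 deletion libraries exceeded both controls for each of these genes, a separation that was not counted over all genes.

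Ltbp2 was also above both controls in all 4 deletion libraries, at 5.16, 6.54, 6.89 and 10.0 CPM against 3.43 and 4.92 CPM, and did not pass the test (log2 0.78, SE 0.26, adjusted p = 0.0993). Dnajc22, the gene most skewed to cDC2, did not pass either (log2 -0.28, SE 0.39, 95% interval -1.04 to 0.49, adjusted p = 0.787). Its deletion libraries, at 5.89, 7.84, 8.86 and 9.67 CPM, overlapped the controls at 7.58 and 12.0 CPM. Gcsam had 10 counts over the 4 deletion libraries against 2 over the controls, a ratio of 2.57 (95% interval 0.548 to 24.1, counting error only). Dkk3 had 2 counts against 0, so that no fold is given. An exact two-sided permutation test of 4 against 2 libraries cannot go below p = 0.0667, the value it gave for Rtn4rl1, Hepacam2 and Actn1. It gave the same value for Gcsam, whose counts were at or near the floor.

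Other cell-type markers moved in these libraries. Monocyte markers (6 genes) summed to 997 to 1235 CPM with the deletion against 2847 and 3569 CPM, and B cell markers to 267 to 365 CPM against 188 and 199 CPM. The cDC1 markers summed to 1022 to 1291 CPM against 968 and 1111 CPM, with Xcr1 at 4.26 to 6.02 CPM against 3.55 and 6.73 CPM. Whether these shifts contribute to the changes of Rtn4rl1, Hepacam2 and Actn1 was not tested.

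**Figure D3:**
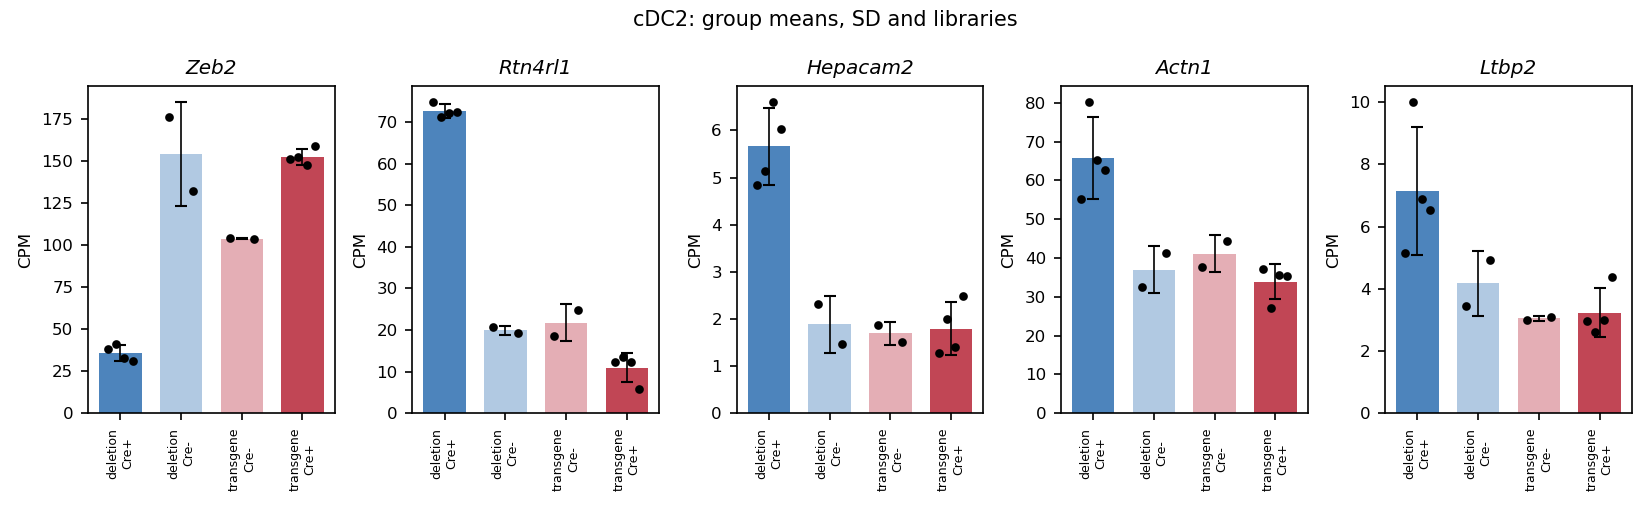
Zeb2, Rtn4rl1, Hepacam2, Actn1 and Ltbp2 in the 4 cDC2 groups, in TMM-scaled CPM, with bars for group means, error bars for SD (n = 4 with Cre, n = 2 without) and points for libraries. With the deletion Zeb2 is lowest and the other 4 genes are highest, and with the transgene Rtn4rl1 is lowest.

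In cDC1 none of the 7 genes passed the test with the deletion. By edgeR 0 of 7 were called, against 0.0228% of all genes tested (3 genes), and DESeq2 also called 0. At an unadjusted p under 0.05 there was 1 of the 7, Rtn4rl1 (log2 0.59, SE 0.28, adjusted p = 0.996, exact two-sided permutation p = 0.0667, the smallest possible), against 4.81% of all genes (633 genes). Its 4 deletion libraries lay above both controls, a separation not counted over all genes. The 95% intervals of the log2 difference were -0.44 to 0.36 for Gcsam, -0.78 to 0.38 for Dkk3, -0.65 to 0.24 for Hepacam2, -0.37 to 0.36 for Actn1 and -0.86 to 0.06 for Ltbp2. For Dnajc22 the interval was -0.56 to 1.37, since its counts in cDC1 were low.

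The deletion effect was compared between subsets by an interaction term (effect in cDC2 minus effect in cDC1). The term equals the subset difference with Cre minus that of the deletion-line controls. Since the subset difference of the controls helped to choose the genes, the term is not independent of that choice. It passed for 1 of the 7 genes, Hepacam2 (1.78 on the log2 scale, SE 0.39, adjusted p = 0.0236), against 1.08% of all genes tested. Leaving out any 1 of the 4 control libraries of the deletion line ended that call, with adjusted p from 0.067 to 0.117. For Rtn4rl1 (log2 1.28, SE 0.38, adjusted p = 0.112), Ltbp2 (1.17, SE 0.35, adjusted p = 0.118), Actn1 (0.84, SE 0.26, adjusted p = 0.135) and Dnajc22 (-0.68, SE 0.63, adjusted p = 0.708) the difference between subsets did not pass. Gcsam and Dkk3 were too scarce in cDC2 for this comparison.

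In cDC2 none of the 7 passed with the transgene by edgeR, and Dkk3 had too few counts to pass. Among all genes tested 0.114% were higher and 0.213% lower. At an unadjusted p under 0.05 there was 1 of the 7, Rtn4rl1, against 8.69% of all genes tested. Its 4 transgene libraries (5.81 to 13.5 CPM) lay below both controls (18.6 and 24.9 CPM), with a log2 difference of -0.99 (SE 0.25, adjusted p = 0.104, exact permutation p = 0.0667). DESeq2 called it, at an adjusted p of 0.0354, and adjusted p ranged from 0.0354 to 0.672 over the alternatives. Actn1 was at -0.28 (SE 0.18, adjusted p = 0.729), and its 4 transgene libraries also lay below both controls. Gcsam, Hepacam2, Ltbp2 and Dnajc22 were at 0.19 (SE 0.39), 0.09 (SE 0.35), 0.09 (SE 0.27) and 0.48 (SE 0.40). For Dkk3, transgene cDC2 held 0 counts and the controls 2.

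**Figure D4:**
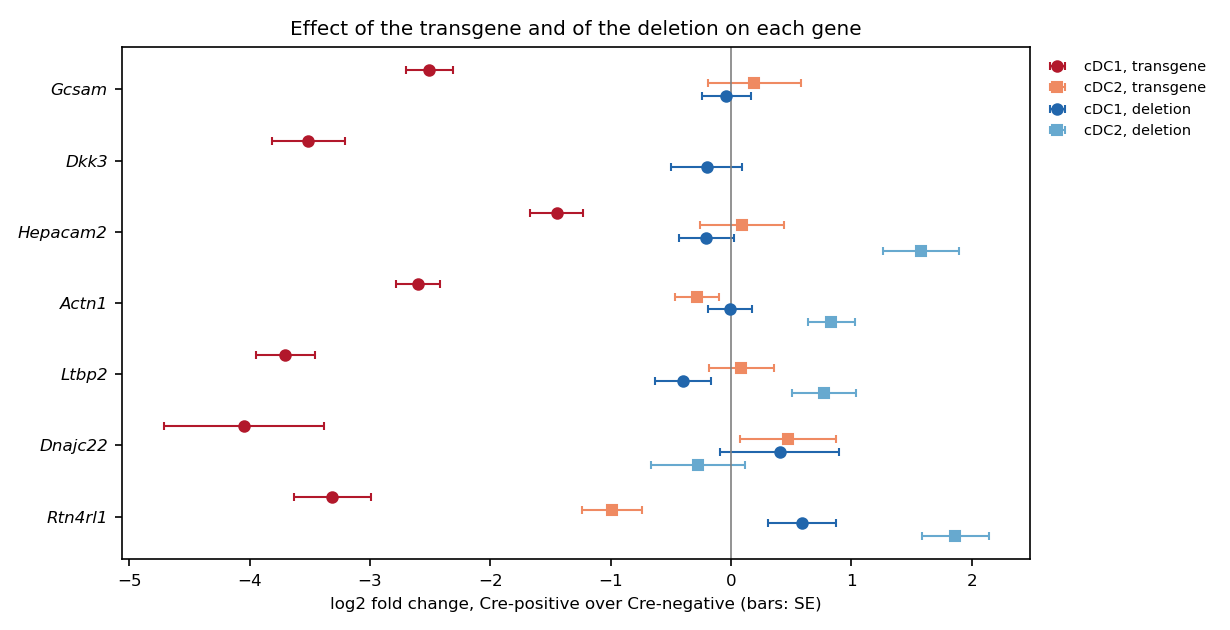
Fitted log2 difference of Cre-positive over Cre-negative libraries for each of the 7 genes, with bars of 1 SE; circles are cDC1, squares cDC2, red shades the transgene and blue shades the deletion. The transgene values in cDC1 chose the genes and run from -1.45 to -4.05; comparisons at the counting floor (Dkk3 in cDC2, Gcsam in cDC2 with the deletion) are left out.

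The subset difference was tested in the Cre-positive libraries of the deletion line, 4 against 4, which the choice of genes had not used. Gcsam and Dkk3 had so few counts in cDC2 that they passed the filter through cDC1 alone, and they are given as counts without a test. Of the other 5, Hepacam2 and Ltbp2 were lower in cDC2 (27.1% of all genes tested were lower) and Dnajc22 and Rtn4rl1 higher (29.0% were higher). Hepacam2 was 23.7-fold lower in cDC2 (log2 -4.57, SE 0.22, adjusted p = 6.75e-14) and Ltbp2 3.02-fold lower (log2 -1.59, SE 0.20, adjusted p = 5.45e-07). Rtn4rl1 was 8.58-fold higher (log2 3.10, SE 0.23, adjusted p = 6.07e-11) and Dnajc22 6.12-fold higher (log2 2.62, SE 0.36, adjusted p = 1.94e-06). For Gcsam there were 10 counts in cDC2 against 38079 in cDC1. For Dkk3 there were 2 against 7905, a ratio of 4222 (95% interval 1169 to 34870, counting error only). For Hepacam2, Ltbp2, Dnajc22 and Rtn4rl1 the libraries did not overlap, and the exact two-sided permutation p was 0.0286, the smallest that 4 against 4 allows. How many of all genes were separated in the same way was not counted.

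Actn1 behaved otherwise. With Zeb2 deleted, cDC2 had 65.9 CPM ± 10.6 (SD, n = 4) and cDC1 64.5 CPM ± 9.03 (SD, n = 4), a log2 difference of 0.03 (SE 0.15, 95% interval -0.27 to 0.33, adjusted p = 0.880, exact permutation p = 0.914). In the controls of the same line the subsets did not overlap, at 32.6 and 41.2 CPM in cDC2 and 52.4 and 77.2 CPM in cDC1. That separation was not counted over all genes, and the controls helped to choose the genes. The change of this subset difference with the deletion did not pass edgeR's interaction test (log2 0.84, SE 0.26, adjusted p = 0.135). In the transgene line, on which the gene was chosen, control means were 41.1 CPM in cDC2 and 70.3 CPM in cDC1. The Cre-positive means there were 33.8 CPM in cDC2 and 11.6 CPM in cDC1, given as a description. Zeb2 itself averaged 35.8 CPM in deletion cDC2 and 44.2 CPM in transgene cDC1, 2 groups in which Actn1 averaged 65.9 and 11.6 CPM. Since the Zeb2 count covers the whole gene, deleted exons included, these 2 levels cannot be compared as amounts of working Zeb2.

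The members did not share a single pattern. Over the 24 libraries, log2 CPM of Gcsam, Dkk3 and Hepacam2 correlated with one another at Pearson's r of 0.921 to 0.973, and Dnajc22 with Rtn4rl1 at 0.839. Rtn4rl1 correlated with Actn1 at 0.728 and with Gcsam at -0.651, and Actn1 with Gcsam at -0.0292. These coefficients are descriptions, since the libraries share subsets and lines and the genes were chosen on part of them.

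The genes most like each member, by r of log2 CPM over the same 24 libraries, are given as descriptions for the same reason. Dkk3 was most like Fuca1 (r = 0.996), a lysosomal fucosidase, followed by Iqch (0.991) and Homer2 (0.990). Fuca1 averaged 759 CPM in control and 415 CPM in transgene cDC1 of that line, and 133 to 148 CPM in the 4 cDC2 groups. Gcsam was most like Cenpv (0.988), Unc119b (0.984) and Cd24a (0.984), the latter encoding a surface antigen of cDC1. Hepacam2 was most like P3h2 (0.994), a collagen prolyl hydroxylase, then Cst3 (0.985), the protease inhibitor cystatin C, and Spop (0.982).

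Cst3 averaged 873 CPM in control and 2048 CPM in deletion cDC2, and 19350 CPM in control and 10690 CPM in transgene cDC1, so that its level, like that of Hepacam2, was higher in cDC2 with the deletion. P3h2 averaged 0.0746 CPM in control and 0.951 CPM in deletion cDC2, and 94.6 CPM in control and 25.7 CPM in transgene cDC1. Actn1 was most like Prr13 (0.952), Spint2 (0.944) and Rab30 (0.923). Spint2, an inhibitor of serine proteases, averaged 191 CPM in control and 76.4 CPM in transgene cDC1, and 123 CPM in control and 233 CPM in deletion cDC2. Ltbp2 was most like Ccndbp1 (0.946), Cnp (0.937) and Rbpj (0.907), the last being the DNA-binding partner of Notch. Dnajc22 was most like Cyb5r3 (0.953), Tbc1d4 (0.950) and Slc44a1 (0.946). Rtn4rl1 was most like Jak2 (0.955), a cytokine receptor kinase, Traf4 (0.951) and Mef2d (0.946). Jak2 averaged 429 CPM in control and 613 CPM in deletion cDC2, 471 CPM in control and 340 CPM in transgene cDC2, and 199 CPM in control and 129 CPM in transgene cDC1.

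Of 76 tested relatives and partners of the 7 genes 5 passed in transgene cDC1, or 6.58%, 5 higher and 0 lower, against 3.58% higher and 3.42% lower of all genes tested. Of the Dickkopf family and Wnt co-receptors 0 of 6 tested genes passed in any of the 4 Cre comparisons, and Dkk2, another secreted Dickkopf protein, was 0.0447 CPM in control cDC1 and 5.57 CPM in control cDC2 of the transgene line, the opposite skew to Dkk3. Of 12 tested actinins and focal adhesion partners 0 passed in transgene cDC1, with a median log2 difference of 0.108 (all genes tested, 0.0152). Actn4, the other widely expressed actinin, was at -0.02 (SE 0.13, adjusted p = 0.966) there and at -0.24 (SE 0.13, adjusted p = 0.357) in deletion cDC2. Flna, which like Actn1 crosslinks actin, fell in deletion cDC2 (log2 -0.67, SE 0.10, adjusted p = 0.000362), while Actn1 rose. Without the first control library its adjusted p was 0.056.

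Of 9 tested LTBP, fibrillin and TGF-beta genes 0 passed in the 4 comparisons, and their median log2 difference in transgene cDC1 was -0.273. Ltbp1 stayed at or under 0.543 CPM in transgene cDC1 and Ltbp3 at or under 2.00 CPM, both being latent TGF-beta binding proteins like Ltbp2. Of 7 tested Nogo receptors, partners and reticulons, Rtn3 rose in transgene cDC1 (log2 0.29, SE 0.08, adjusted p = 0.0396), a call lost under DESeq2 size factors (0.0521), without the filter on low counts (0.0642) and without either control or transgene library 1, 2 or 3 (adjusted p up to 0.245). Rtn4r, the first Nogo receptor, was 0 CPM in control cDC1 of the transgene line and at most 0.831 CPM in any cDC2 library. Of 24 tested DnaJ C genes, Dnajc19, a mitochondrial co-chaperone, rose in transgene cDC1 (log2 0.46, SE 0.13, adjusted p = 0.0332), and without the second control library its adjusted p was 0.377.

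Among 9 tested relatives of Hepacam2 and other immunoglobulin-like adhesion genes, Esam, an adhesion molecule that marks a part of cDC2, rose in transgene cDC1 from 9.80 CPM ± 1.53 (SD, n = 2) to 20.3 CPM ± 7.34 (SD, n = 4). Its log2 difference was 1.05 (SE 0.26, adjusted p = 0.0141), and without the first control library adjusted p was 0.163, without the second 0.0603. Cadm1, an adhesion molecule used as a cDC1 marker, fell in deletion cDC2 (log2 -1.44, SE 0.21, adjusted p = 0.000168). Of 9 tested partners of Gcsam in germinal-centre cells and motility, Syk and Lyn, kinases of antigen-receptor signalling, rose in transgene cDC1 (log2 0.54, SE 0.13, adjusted p = 0.00988, and log2 0.36, SE 0.10, adjusted p = 0.0331). Both calls were lost without the first control library (adjusted p = 0.166 and 0.431). These 2 kinases were also more abundant in control cDC2, Syk at 188 against 58.4 CPM and Lyn at 698 against 398 CPM in the transgene line.

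Other cDC1 identity genes gave a setting for the 7. All 20 of that list were tested, 9 were lower and 0 higher in transgene cDC1, and the median log2 difference was -0.464. Of all genes tested 3.42% were lower and 3.58% higher there, with a median of 0.0152. The list was chosen with earlier results of these data known, and all 20 were lower in control cDC2. Its counts, here and in deletion cDC2, are therefore descriptions. Tlr3, a sensor of double-stranded RNA, fell 2.29-fold (log2 -1.20, SE 0.18, adjusted p = 0.000108), and Tlr11, a sensor of microbial profilin, fell 1.68-fold (log2 -0.75, SE 0.15, adjusted p = 0.00165, and 0.0506 without the second control library). Itgae, which encodes CD103, fell 3.44-fold (log2 -1.78, SE 0.38, adjusted p = 0.00409). That last call was lost without the second control library (adjusted p = 0.403), since the controls differed, at 92.3 and 270 CPM.

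In deletion cDC2 3 of the 20 identity genes were higher and 3 lower, against 2.33% and 2.88% of all genes tested. Snx22, which encodes a sorting nexin, rose 4.66-fold (log2 2.22, SE 0.20, adjusted p = 1.54e-07), from 2.54 and 2.96 CPM to between 10.2 and 15.1 CPM. In transgene cDC2 it fell 3.92-fold (log2 -1.97, SE 0.20, adjusted p = 3.76e-06), the only identity gene to pass there. The log2 differences of Rtn4rl1 in the same 2 comparisons were 1.86 and -0.99. Clec9a, a receptor for dead cells, and Cd36, a scavenger receptor, fell in deletion cDC2 (log2 -2.45, SE 0.24, adjusted p = 1.16e-06, and log2 -1.75, SE 0.19, adjusted p = 3.78e-06). Hepacam2 and Clec9a, both cDC1-skewed in the controls, thus moved in opposite directions in deletion cDC2.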

How the data were processed

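RNA of sorted splenic cDC1 and cDC2 was amplified from 4 ng per sample with a SMART-Seq kit and sequenced in single reads, per the labels' protocols. Per the submitters' processing notes, the tools were FastQC 0.11.4, Trimmomatic 0.35, TopHat2 2.1.0 and SAMtools 0.1.18, with the mm10 genome. The deposited files hold raw counts per gene symbol made by the authors, without scaling. How reads were assigned to genes (program, annotation, strand) is not stated in the labels. Lines for reads in no gene (10.4 to 15.7% of reads in no feature) were left out of totals and tests.

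Groups (subset, line and Cre) came from the labels of the 24 libraries. Genes were kept by edgeR's filterByExpr (minimum count 10, minimum total 15), which left 13166, and scaled by TMM. Quasi-likelihood fits used all libraries and 8 group means (edgeR 4.0.16, limma 3.58.1, R 4.3.3), so that groups of 2 controls share the estimate of the spread. P-values were adjusted by Benjamini-Hochberg over all genes tested, with a threshold of 0.05. Standard errors were taken from the log2 difference and its F statistic, and intervals are at 95%. Intervals of count ratios are exact and conditional on the total. Reads carry no molecular identifiers, so these intervals and the floor of 3 counts cover counting error only. No test was made for the 7 genes in the 2 contrasts used to choose them. The procedure was tested on simulated counts.

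The members and the gene lists were chosen with earlier results of these data known. Named besides the 7 genes and Zeb2 were the 3 genes most correlated with each member (log2 CPM, prior count 2) and up to 3 passing genes per list and Cre comparison. Alternatives were DESeq2 1.42.0 and its size factors, no filter on low counts or at least 5 CPM in 4 libraries, the compared groups alone, a replicate block and leaving out each library. Promoter letters were searched in RefSeq windows of GRCm38.p6, the assembly of mm10.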

Additional observations from a re-analysis of the deposited data

Results flagged for a closer look

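In 4 groups of 4 libraries, 1 library stood apart from the other 3 by the gap divided by the group's range, out of 25 such groups of the 7 genes that were examined. Chance alone puts about 1 in 20 groups past the 95% critical value of Dixon's ratio. Gcsam in deletion cDC2 had a highest library at 0.155 CPM (gap 0.976 of the range), which is 4 counts against 2 in each of the others. Actn1 in transgene cDC2 had a lowest library at 27.1 CPM (gap 0.83). Ltbp2 in deletion cDC1 had a highest library at 30.1 CPM (gap 0.832), inside the range of the controls of both lines. Rtn4rl1 in transgene cDC2 had a lowest library at 5.81 CPM (gap 0.845), with the other 3 at 12.3 to 13.5 CPM, all below the controls.

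The fitted deletion effect on Hepacam2 differed between the subsets, by 1.784 on the log2 scale (cDC2 minus cDC1, SE 0.39, adjusted p = 0.0236 by edgeR's interaction term). As given above, that call needed each of the 4 control libraries, and the controls had entered the choice of genes. With any 1 library left out the log2 value was 1.493 to 2.155. All 4 deletion libraries of cDC2 lay above their controls, while those of cDC1 overlapped theirs, which was not counted over all genes.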

How the results depend on the processing

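Among the values of single members under the alternatives, 495 stayed the same, 6 lost a call and 4 gained one. A further 20 changed sign and 5 untested values moved by more than 1 SD. Tested values counted as the same kept their direction and their side of the threshold. Untested ones kept their direction and moved by less than 1 SD. The 495 include Gcsam and Dkk3 between the Cre-positive subsets of the deletion line, which are given above without a test. Signs changed only where the test had not been passed. For the deletion in cDC1, leaving out 1 library gave -0.11 to 0.046 for Gcsam, -0.47 to 0.0036 for Dkk3, -0.27 to 0.32 for Actn1 and -0.25 to 1.55 for Dnajc22, and without the filter Actn1 was at 0.00028. In cDC2 with the deletion it gave -0.57 to 0.090 for Dnajc22. In cDC2 with the transgene it gave -0.41 to 1.33 for Gcsam, -0.11 to 0.25 for Hepacam2 and -0.095 to 0.18 for Ltbp2. Between the Cre-positive subsets of the deletion line it gave -0.079 to 0.11 for Actn1. The cause was not tested.

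The count of members called in cDC2 with the transgene was 0, and 1 by DESeq2. For the difference of the deletion effect between subsets it was 1, and 2 by DESeq2, and 0 to 2 when a library was left out: 0 without any 1 of the 4 controls, and 2 without the third deletion cDC1 library, when Ltbp2 passed too (adjusted p = 0.0441). DESeq2 added Rtn4rl1 (adjusted p = 0.0402).

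Over all genes tested, leaving out the first control library in cDC2 with the deletion left 72 higher and 70 lower of 307 and 379, so that 2 control libraries per group limit the calls. Dkk3 and Gcsam in cDC2 and Dnajc22 in transgene cDC1 are limited by counts near the floor.

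The replicate numbers were not taken to pair cDC1 with cDC2 libraries, since the labels do not say that they mark the same mouse and not every correlation of deviations was over 0.1. It was 0.0764 to 0.17 in the Cre-positive pairs of the deletion line and 0.101 to 0.111 in those of the transgene line, over 0.1 in 7 of 8, and -0.00779 and 0.0352 in the controls. Each Cre-positive library did correlate best with its own number, a hint from the data and not from the design. With the replicate block the interaction count was 2 (Actn1 too, adjusted p = 0.0318), Actn1 in cDC1 with the deletion was at 0.027, and in cDC2 with the transgene Hepacam2 was at -0.086 and Ltbp2 at -0.025. The block changed no other call of a member.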
